A study of Mus musculus with 6 samples.

Results

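The casein gene family of the mouse was followed here through all probe sets that the array's gene annotation gives to 1 casein symbol alone. These were 11 probe sets for 5 genes, Csn1s1, Csn2, Csn1s2a, Csn1s2b and Csn3, out of 18193 genes on the array with a probe set of their own. The rule used gene names and no measured value. RNA of mammary glands was hybridised to one-colour Affymetrix arrays, 3 labelled Elf5 KO and 3 labelled wild type, with replicates numbered 1 to 3 in each group. Both groups carry the stage pregnancy day 17 in their labels, but the design text of the series speaks of lactation day 1, so the stage is not settled. The sources used here do not give the Elf5 allele, the cells it was lost from, or the strain and age of the mice. Unless arrays are named as left out, p-values are over 3 against 3 arrays, which the sample titles call biological replicates.

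Caseins are the main proteins of milk. Csn1s1, Csn2, Csn1s2a and Csn1s2b encode the calcium-sensitive caseins, phosphoproteins that carry calcium phosphate to the young. Csn3 encodes kappa-casein, an unrelated glycoprotein that coats the casein micelle and keeps it in suspension. The genes lie together on mouse chromosome 5 and are switched on in secretory luminal cells during pregnancy, when prolactin acts through Jak2 and Stat5 together with glucocorticoid and Ets factors such as Elf5.

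Promoter sequence for 3 of the 5 genes was in the RefSeq table (build GRCm38.p6), and the 250 bases before each start site are shown. A link between these sequences and the array signals was not tested. Capitals mark matches to TTCNNNGAA, the palindromic Stat5 motif, which reads the same on both strands.
Csn1s1: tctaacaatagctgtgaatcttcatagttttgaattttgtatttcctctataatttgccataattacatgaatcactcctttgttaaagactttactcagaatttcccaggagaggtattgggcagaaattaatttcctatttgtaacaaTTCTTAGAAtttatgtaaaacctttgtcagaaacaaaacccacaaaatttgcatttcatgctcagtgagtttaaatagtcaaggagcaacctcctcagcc
Csn2: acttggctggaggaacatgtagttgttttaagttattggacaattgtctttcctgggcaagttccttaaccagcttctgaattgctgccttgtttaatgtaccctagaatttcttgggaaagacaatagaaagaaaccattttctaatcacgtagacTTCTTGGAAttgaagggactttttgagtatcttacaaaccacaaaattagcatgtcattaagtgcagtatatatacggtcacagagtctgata
Csn1s2a: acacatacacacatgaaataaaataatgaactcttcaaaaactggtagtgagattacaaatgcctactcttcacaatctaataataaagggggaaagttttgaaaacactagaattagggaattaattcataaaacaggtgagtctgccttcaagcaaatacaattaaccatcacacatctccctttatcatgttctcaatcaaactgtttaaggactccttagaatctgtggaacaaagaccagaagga
The Csn1s1 window is chr5:87665958-87666207 on the plus strand, the Csn2 window chr5:87699426-87699675 on the minus strand, and the Csn1s2a window chr5:87774200-87774449 on the plus strand. With -1 as the last base before the start, the motif began at -100 in Csn1s1 and at -93 in Csn2, and no match lay in the Csn1s2a window. In Csn1s2a a match began at position 21 past the start, outside the bases shown. Of 32851 promoter windows of 250 bases in the table, 7.02% held the motif, and 8.3% did when 300 bases, running past the start, were searched. The Ets core GGAA, searched on both strands, occurred 3 times in the Csn1s1 window, 5 times in the Csn2 window and 3 times in the Csn1s2a window. Of all windows, 93.4% held at least 1, 54.7% at least 3 and 18% at least 5. In Csn2 alone of these 3 windows a GGAA lay inside the Stat5 match. A match of letters is a description and shows no binding.

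Elf5 was lower in every Elf5 KO array than in every wild-type array. Its signal was 5616, 4361 and 3128 in Elf5 KO arrays 1, 2 and 3, against 12011, 8044 and 7244 in wild-type arrays 1, 2 and 3, a log2 difference of -1.06 ± 0.32 (standard error) that did not pass (limma adjusted p = 0.109). Groups did not overlap in this direction for 10.6% of genes tested. RNA quality differed between arrays. The Gapdh control has a 3′ and a 5′ probe set, and a high 3′ over 5′ signal goes with degraded RNA. This quotient was 0.802, 3.89 and 13.6 in the Elf5 KO arrays and 1.09, 0.833 and 0.876 in wild type. The same quotient for Actb was 1.58, 1.87 and 21.0 in the Elf5 KO arrays and 2.04, 1.20 and 1.84 in wild type, so that KO array 2 stood apart by Gapdh and not by Actb. Results are also given without KO arrays 2 and 3, a setting that rests on KO array 1 alone and assumes that it varies like the wild-type arrays.

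Caseins were among the brightest signals of the gland in both genotypes. The brightest probe set of all on KO array 1 and on wild-type arrays 1, 2 and 3 was one of Csn1s2a. On KO array 2 it was that of the ribosomal protein gene Rps29, and on KO array 3 a ribosomal probe set annotated to several genes. Casein probe sets held 4, 2 and 0 of the 10 top ranks on KO arrays 1, 2 and 3, against 4, 4 and 1 on wild-type arrays 1, 2 and 3. KO array 3 and wild-type array 3 had the fewest caseins among the top ranks of their groups. Differences below are on the scale log2(signal + 16), Elf5 KO minus wild type, with limma's moderated standard error (SE) and an adjusted p (Benjamini-Hochberg over 10916 genes). For each gene the probe set with the highest mean stands for the gene.

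**Figure D1:**
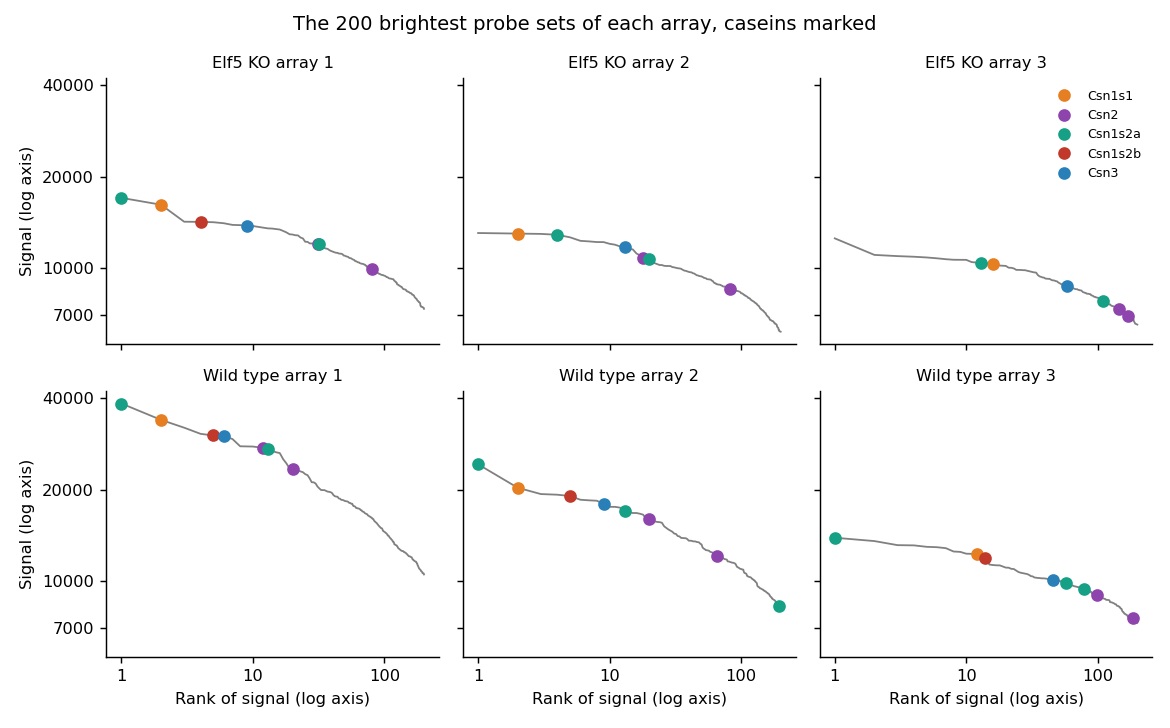
Signal against rank for the 200 brightest of all probe sets on each array, both axes logarithmic, with casein probe sets as coloured points. The curve starts at 38413 on wild-type array 1 and at 12518 on Elf5 KO array 3, and the highest casein is at rank 1 on KO array 1 and all wild-type arrays, rank 2 on KO array 2 and rank 13 on KO array 3.

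All 5 casein genes had a lower mean log2 signal in the Elf5 KO, as did 46.1% of all genes tested, and none passed the test. With limma 0 of 5 were called lower, where 0.11% of all genes tested were, and 1 of 5, Csn1s2b, was lower at an unadjusted p under 0.05, against 8.48% of all. Groups overlapped for every one of the 5, while 10.6% of genes tested lay wholly lower in the KO. The median difference of the 5 was -0.68, against 0.06 over all genes tested. It was -0.29 without wild-type array 1, the brightest for all 5, and -1.09 without wild-type array 3, the dimmest. Without KO arrays 2 and 3 Csn1s1 differed by -0.33, Csn2 by -0.40, Csn1s2a by -0.46 and Csn3 by -0.35. With the log2 Gapdh quotient as a covariate the median of the 5 was -0.42. In gland tissue, fewer secretory cells and less casein RNA per cell cannot be told apart.

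Csn1s1 encodes alpha-S1-casein, which in goats is needed for efficient export of caseins from the endoplasmic reticulum. Its signal was 16155, 12987 and 10273 in Elf5 KO arrays 1, 2 and 3, against 33934, 20284 and 12253 in wild-type arrays 1, 2 and 3. KO arrays 1 and 2 both exceeded wild-type array 3, and the wild-type arrays alone spanned 2.77-fold. The difference was -0.66 ± 0.37 (SE, n = 3 per group, limma adjusted p = 0.324).

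Csn2 encodes beta-casein. It read 12009, 10799 and 7330 in the KO, against 27414, 15974 and 9008 in wild type, again with KO arrays 1 and 2 above wild-type array 3. Its difference was -0.68 ± 0.40 (limma adjusted p = 0.334). The other Csn2 probe set, 1420370_s_at, was designed from the same sequence record and read 9895, 8527 and 6923 in the KO, against 23316, 12080 and 7553 in wild type.

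Csn3, the micelle-coating kappa-casein, read 13767, 11755 and 8716 in the KO, against 30065, 17924 and 10076 in wild type. The order of the arrays was that of Csn1s1 and Csn2. Its difference was -0.65 ± 0.39 (limma adjusted p = 0.346).

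Csn1s2a encodes a casein of the alpha-S2 type. Its brightest probe set, 1436170_a_at, read 17018, 12863 and 10418 in the KO, against 38413, 24229 and 13884 in wild type. Only KO array 1 lay above wild-type array 3. The difference was -0.83 ± 0.38 (limma adjusted p = 0.233), and the mean KO signal of 13433 ± 3336 was 52.7% of the wild-type 25509 ± 12314 (SD, n = 3 each).

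Csn1s2b, the other alpha-S2-type gene, had the largest difference of the 5. It read 14184, 5203 and 3383 in Elf5 KO arrays 1, 2 and 3, against 30149, 19049 and 11893 in wild-type arrays 1, 2 and 3. KO arrays 2 and 3 lay well below all wild-type arrays, and KO array 1 lay between wild-type arrays 2 and 3. The probe set ranked 4th, 262nd and 647th by brightness on KO arrays 1, 2 and 3, against 5th, 5th and 14th in wild type. Mean signal was 7590 ± 5783 in the KO, or 37.3% of 20363 ± 9199 in wild type (SD, n = 3 each). The difference was -1.59 ± 0.52 (limma adjusted p = 0.130). Without KO array 1 it was -2.17 (limma adjusted p = 0.0190), with only the arrays of Gapdh ratio 3.89 and 13.6 left in the KO. In that setting 553 of 10916 genes tested were called lower and 653 higher, against 12 and 123 with all arrays. Without KO arrays 2 and 3 the Csn1s2b difference was -0.42. With the log2 Gapdh quotient as a covariate over all 6 arrays it was -0.67 (limma adjusted p = 0.799).

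**Figure D2:**
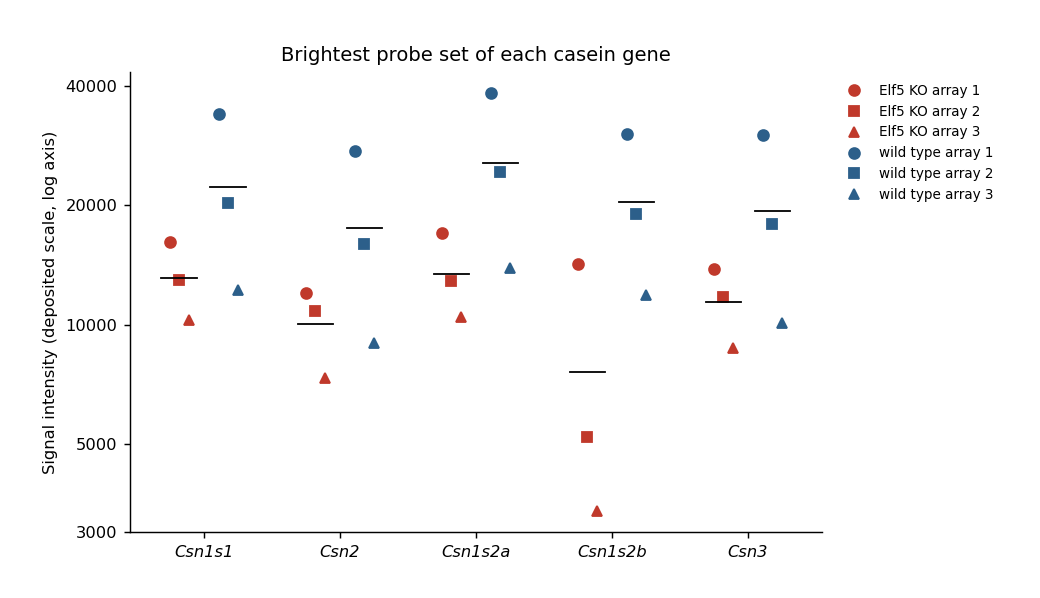
Signal of the probe set that stands for each casein gene, on a logarithmic axis. Red points are Elf5 KO arrays and blue points wild-type arrays, marker shapes give the array number, and black bars are group means (n = 3). Within each gene the groups overlap, and Csn1s2b shows KO arrays 2 and 3 at 5203 and 3383 against a wild-type minimum of 11893.

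Every casein gene was lower in the Elf5 KO array than in the wild-type array of the same number. That held in 3 of 3 pairs for 5 of 5 genes, where it held for 23.6% of genes tested. These pairs are by number alone, as the labels state no pairing. For Csn2 the KO signal was 43.8%, 67.6% and 81.4% of wild type in pairs 1, 2 and 3, and for Csn3 it was 45.8%, 65.6% and 86.5%. Csn1s2b ran otherwise, with 47.0%, 27.3% and 28.4%. With the replicate number as a block, limma called 3 of 5 lower, where 4.53% of all genes were: Csn1s2b (adjusted p = 0.0121), Csn1s2a (adjusted p = 0.0226) and Csn1s1 (adjusted p = 0.0484). Csn2 (adjusted p = 0.0550) and Csn3 (adjusted p = 0.0613) did not pass.

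The wild-type arrays also differed widely among themselves in these genes. Wild-type array 1 over wild-type array 3 gave ratios between 2.54 and 3.04 for the 5 caseins, against 2.72 for the Cre control, which is added at hybridisation and does not come from the mouse, and 0.945 for the 90th percentile of all probe sets. The Cre control read 11820, 12012 and 9854 on the KO arrays and 27746, 19335 and 10208 on the wild-type arrays, which is -0.66 in log2 (two-sided exact permutation p = 0.3). Set against Cre within each array, Csn1s1, Csn2, Csn1s2a and Csn3 differed between genotypes by 0.00011, -0.028, -0.18 and 0.0081 on the log2 scale. Csn1s2b differed by -0.93 in the same measure (exact permutation p = 0.4, adjusted p = 1 over 5 ratios). Other hybridisation controls differed by more than Cre between the groups, the BioDn control by -1.18 and the BioB control by -0.91 in log2, so these near-zero values hold for Cre and not for every control. For 3 against 3 arrays this test cannot go below 0.1.

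Signals at the top of the arrays were crowded to different degrees. The brightest probe set was 1.55, 1.39 and 1.40 times the 50th brightest on KO arrays 1, 2 and 3, against 2.09, 1.83 and 1.39 times on wild-type arrays 1, 2 and 3. KO arrays 2 and 3 and wild-type array 3 had the flattest tops. The signal exceeded by the brightest 0.1% of probe sets was 11144, 9461 and 9103 on the KO arrays and 18644, 13443 and 10072 on the wild-type arrays, which is -0.47 in log2 (two-sided exact permutation p = 0.2). Of the 38 other probe sets at least as bright over the 6 arrays as the dimmest of the 5 caseins, 37 had a lower mean in the KO, with a median difference of -0.54 and a range of -1.15 to 0.20. This set was chosen after the values were seen and carries no test. The deposited signals carry no saturation mark, and the part of saturation in the casein values was not tested.

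Rescaling moved all 5 caseins toward 0, and 4 of them past it under 1 scaling. Once quantile normalization had put the arrays on a common distribution, Csn1s1 differed by -0.019, Csn2 by -0.14, Csn3 by -0.056 and Csn1s2a by -0.20, while Csn1s2b was at -1.21 and did not pass. With each array scaled to the signal that its brightest 0.1% exceed, Csn1s2b differed by -1.12 (limma adjusted p = 0.0545) and the other caseins by -0.18 to -0.37. Scaled to the hybridisation controls, Csn1s1, Csn2, Csn1s2a and Csn3 turned to 0.29, 0.26, 0.11 and 0.30, and Csn1s2b was -0.64. That scaling moved the median of all genes tested by 0.86 upward, and relative to that median the family's median was -0.66, against -0.75 as deposited.

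**Figure D3:**
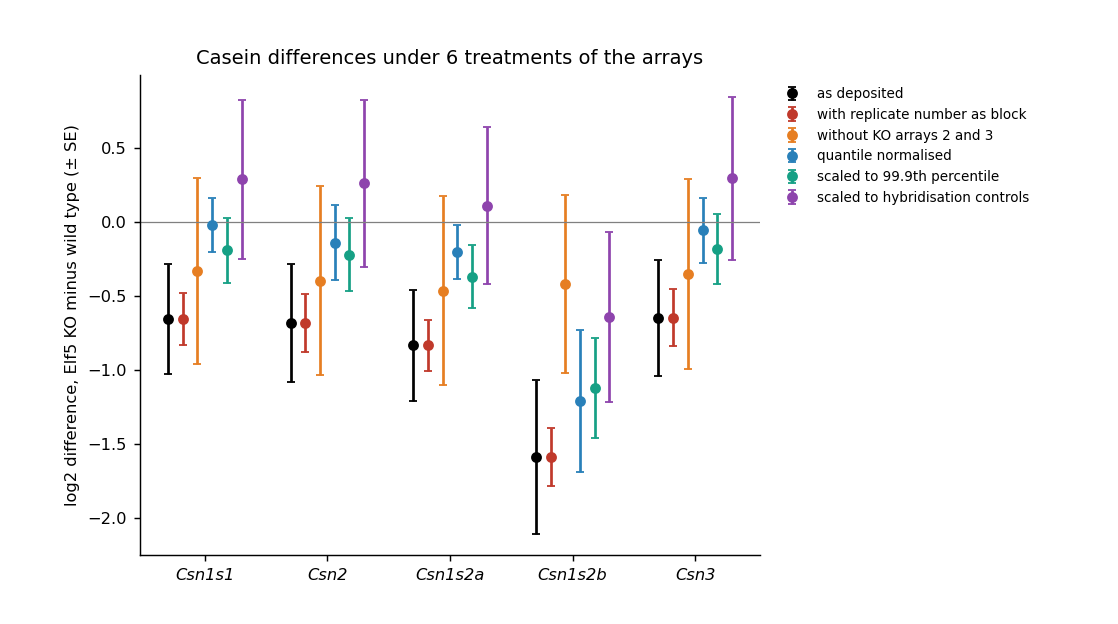
Log2 difference, Elf5 KO minus wild type, of each casein gene under 6 treatments of the arrays, with limma's SE as bars (n = 3 per group, 1 KO array in the setting without KO arrays 2 and 3). Points of Csn1s2b lie below 0 in all 6 (-0.42 to -1.59), whereas those of the other 4 genes lie above 0 when scaled to the hybridisation controls.

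Within arrays, the signals of Csn1s1, Csn1s2a and Csn3 relative to Csn2 varied less than that of Csn1s2b. All ranked 146th or brighter on each array, among the bright signals described above, except Csn1s2b on KO arrays 2 and 3. The part of crowding at the top in the narrow range of these ratios was not tested. Relative to Csn2, the log2 ratio of Csn3 was 0.20, 0.12 and 0.25 on KO arrays 1, 2 and 3, against 0.13, 0.17 and 0.16 on wild-type arrays 1, 2 and 3. The log2 ratio of Csn1s1 to Csn2 spanned 0.22 over the 6 arrays, and that of Csn1s2a to Csn2 spanned 0.37. The log2 ratio of Csn1s2b to Csn2 was 0.24, -1.05 and -1.11 on KO arrays 1, 2 and 3, against 0.14, 0.25 and 0.40 in wild type. KO array 1 lay inside the wild-type range, and KO arrays 2 and 3 lay more than 1 below it. The group difference of this ratio was -0.90 (two-sided exact permutation p = 0.2, adjusted p = 0.6 over 4 ratios), and without KO arrays 2 and 3 it was -0.024.

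**Figure D4:**
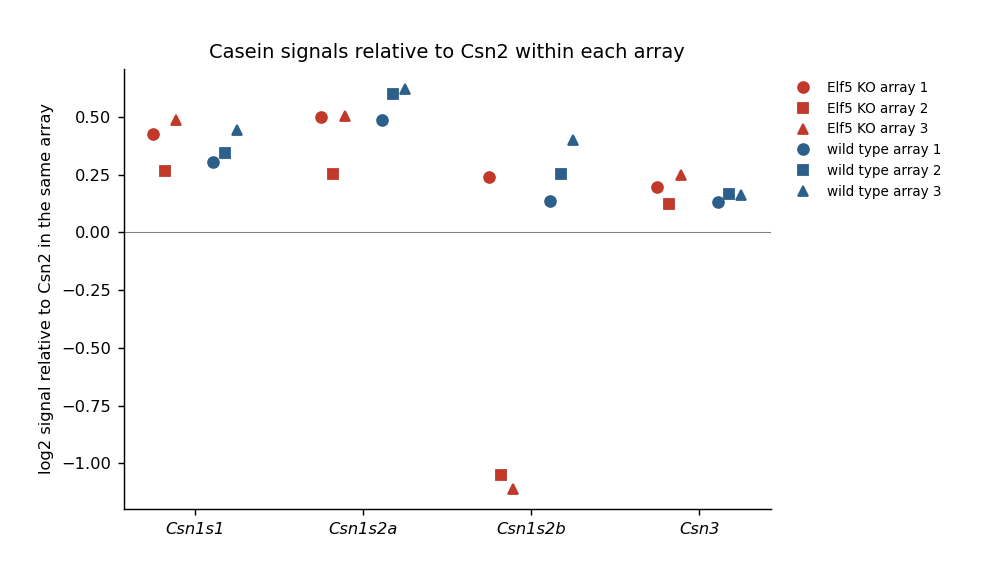
Log2 signal of 4 casein genes relative to Csn2 on the same array, Elf5 KO in red and wild type in blue, marker shapes giving the array number. The ratio of each of Csn1s1, Csn1s2a and Csn3 spans at most 0.37 over the 6 arrays, while that of Csn1s2b is at -1.05 and -1.11 on KO arrays 2 and 3.

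Other probe sets of Csn1s2a and Csn3 gave another picture. Of the 11 casein probe sets, 7 had a wild-type mean over 10000, and the rest were dimmer. Over 27022 probe sets tested on their own, limma called 0 lower, 0% of all, with or without the replicate block. Of the 11 casein probe sets, 5 were lower at an unadjusted p under 0.05, against 9.29% of all. All 11 had a lower mean, as did 55.4% of all, and the groups overlapped for all 11, where 12.7% of all lay wholly lower in the KO. In 11 of 11 the KO array lay below the wild-type array of the same number in 3 of 3 pairs, as for 28.4% of all probe sets. Probe sets of 1 gene share their RNA and are not independent.

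Csn1s2a had 5 probe sets. Probe set 1438694_at read 108, 397 and 1166 in Elf5 KO arrays 1, 2 and 3, against 495, 6465 and 9840 in wild-type arrays 1, 2 and 3. The KO signal was 21.7%, 6.15% and 11.8% of wild type in pairs 1, 2 and 3, and only KO array 3 exceeded wild-type array 1. The difference was -3.03 ± 1.12 (SE, limma adjusted p = 0.231, and 0.0608 with the block), and it was -4.69 without KO arrays 2 and 3.

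Probe set 1455579_at was designed from the same sequence record as 1436170_a_at, the brightest of the gene, yet read 50.4, 3937 and 2667 in the KO, against 254, 8249 and 6885 in wild type. Both arrays numbered 1 were dim here, although they were the brightest of their groups with 1436170_a_at. The difference was -1.48 ± 1.66 (limma adjusted p = 0.631), with KO at 19.8%, 47.7% and 38.7% of wild type in pairs 1, 2 and 3. Without KO array 1 it turned to 0.39, and without KO arrays 2 and 3 it was -5.23.

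Probe set 1420633_a_at of Csn1s2a followed the bright pattern, with 11977, 10668 and 7788 in the KO, against 27153, 16993 and 9391 in wild type. The dimmest, 1436488_at, read 6.7, 26.4 and 15.2 in the KO, against 50.1, 37.6 and 25.7 in wild type. This probe set passed the filter of the fit over probe sets, a signal of 21.3. Its signals lie around that limit, so little can be read from them.

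The other Csn3 probe set, 1451851_a_at, read 316, 874 and 147 in the KO, against 521, 2432 and 2008 in wild type. KO array 2 lay above wild-type array 1. The difference was -1.93 ± 0.71 (limma adjusted p = 0.230), larger than the -0.65 of the bright Csn3 probe set. Pearson's r with the bright Csn3 probe set was 0.18 over the 6 arrays, and r of 1438694_at with 1436170_a_at was -0.052. The sources used here do not say where these dimmer probe sets lie on the transcripts.

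**Figure D5:**
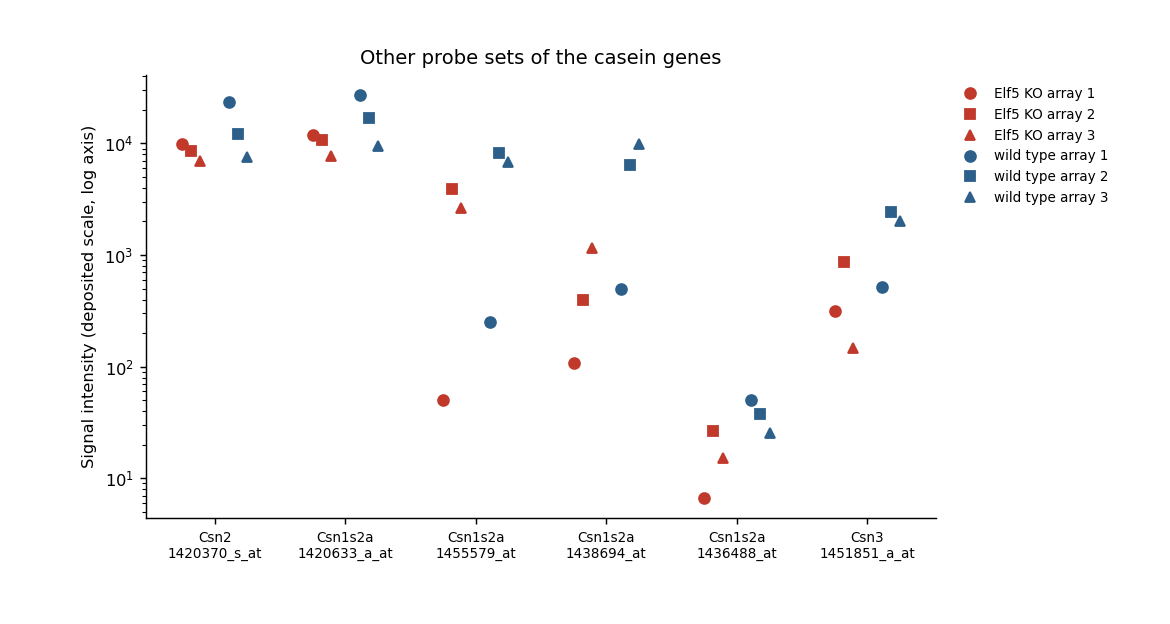
Signal of the 6 casein probe sets that do not stand for their gene, on a logarithmic axis, Elf5 KO in red and wild type in blue, marker shapes giving the array number. For 1455579_at and 1438694_at the circle, array 1, is the lowest point of its own group, and each red marker lies below the blue marker of the same shape in all 6 probe sets.

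With clone names passed over, the genes whose signals ran most like the caseins were other bright ones for the most part. Over the 6 arrays, Pearson's r with the mean log2 signal of the 5 caseins was 0.998 for Lcn2, an iron-siderophore binding protein, 0.996 for the elongation factor gene Eef1a1, 0.994 for Esyt3, 0.993 for Lao1, an amino acid oxidase of milk, and 0.992 for the ribosomal protein gene Rpl41. Eef1a1 read 13659, 11166 and 8514 in the KO, against 27573, 17547 and 11263 in wild type, a difference of -0.69 that is close to that of Csn2. Esyt3 was the dim one, with 432, 276 and 210 in the KO, against 849, 495 and 338 in wild type.

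Of the genes that regulate casein transcription, 11 of 13 on the list were measured: 4 had a lower and 7 a higher mean, with a median of 0.05, and none passed. Stat5a, the transcription factor that carries the prolactin signal to casein promoters, read 905, 676 and 288 in the KO, against 2444, 1654 and 1842 in wild type. Every KO array lay below every wild-type array, as for 10.6% of genes tested. The difference was -1.77 ± 0.42 (limma adjusted p = 0.0662), and -1.10 without KO arrays 2 and 3, where that of Elf5 was -0.66. With the block Stat5a (adjusted p = 0.0163) and Elf5 (adjusted p = 0.0151) fell and the nuclear factor gene Nfix rose by 0.91 (adjusted p = 0.0449), where 4.53% of all genes fell and 7.7% rose. Stat5b differed by -0.49 ± 0.37 and the glucocorticoid receptor gene Nr3c1 by -0.31 ± 0.37.

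All 6 genes of casein phosphorylation and mineral supply had a lower mean in the KO, as did 46.1% of all genes tested, with a median of -1.86, against 0.06 over all genes tested, and none passed without the block. Fam20c, the Golgi kinase that phosphorylates caseins, read 1690, 531 and 250 in the KO, against 2836, 2178 and 1540 in wild type. Only KO array 1 reached the wild-type range. Its difference was -1.76 ± 0.59 (limma adjusted p = 0.135), and -0.32 without KO arrays 2 and 3. Fam20a, a pseudokinase that activates Fam20c, differed by -1.96 ± 0.46, the apical calcium pump Atp2b2 by -2.56 ± 0.68 and the phosphate cotransporter Slc34a2 by -1.75 ± 0.47, with limma adjusted p between 0.0665 and 0.0862. Without KO arrays 2 and 3 these were -1.17 for Fam20a, -0.91 for Atp2b2 and -0.89 for Slc34a2. With the block 5 of the 6 fell, Atp2c1 being the exception (adjusted p = 0.0744), where 4.53% of all genes did. The list's median was -0.90 without KO arrays 2 and 3.

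Of 14 chaperone and secretory cargo genes, 11 had a lower mean, where 46.1% of all genes did, and 3 a higher one, with a median of -0.47, and none passed. Ssr4, of the translocon-associated complex, differed by -1.36 ± 0.37, the protein disulfide isomerase P4hb by -1.15 ± 0.42 and the coat protein gene Sec23b by -0.90 ± 0.34. These 3 fell with the block (adjusted p = 0.0125, 0.0215 and 0.0396), where 4.53% of all genes did. Without KO arrays 2 and 3 Ssr4 differed by -0.72, P4hb by -0.29 and Sec23b by -0.44, and the list's median was -0.25.

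Most genes around the casein cluster were too dim to test. In RefSeq order, Sult1e1 precedes Csn1s1, and Prr27, Odam and another gene lie between Csn1s2b and Csn3. Of 23 neighbours, 19 were measured and 3 passed the filter on dim genes. Sult1d1, a sulfotransferase gene on the Csn1s1 side, read 159, 78.8 and 64.8 in the KO, against 387, 131 and 290 in wild type (-1.25 ± 0.44, limma adjusted p = 0.150). Jchain, the joining chain of secreted antibodies, read 2740, 3905 and 5848 in the KO, against 1105, 2485 and 3174 in wild type (0.94 ± 0.43, limma adjusted p = 0.240). With the block Sult1d1 fell (adjusted p = 0.0374) and Jchain rose (adjusted p = 0.0332), where 4.53% of all genes fell and 7.7% rose. Without KO arrays 2 and 3 Sult1d1 differed by -0.58 and Jchain by 0.41. Odam, inside the cluster, read 49.6, 16.6 and 13.6 in the KO, against 84.4, 40.6 and 30.4 in wild type, and was not tested.

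The summed signals of markers of other cells were not tested, and no share over all features stands beside them. Of the 10916 genes tested, 5888 had a higher mean in the KO. All 7 fibroblast markers had a higher mean in the KO, with summed signals of 20584 to 35069, against 11625 to 18681 in wild type, and 2 of the 7 were called higher, where 1.13% of all genes were. All 5 measured adipocyte markers had a higher mean and 0 were called, with sums of 23692 to 34029 in the KO, against 17609 to 20535 in wild type, and all 6 immune markers had a higher mean and 0 were called, with sums of 4643 to 7934 in the KO, against 2426 to 3433 in wild type. The smallest difference among the immune markers was 0.011 ± 0.41 (SE). The 4 skeletal muscle markers had a higher mean and 0 were called, with sums of 900 to 5962 in the KO, against 303 to 3544 in wild type. Of 6 luminal markers 3 had a higher and 3 a lower mean and 0 were called, with sums of 17899 to 23394 in the KO, against 22321 to 23641 in wild type; Elf5 is among them. Their part in the casein differences was not tested. Of 6 myoepithelial markers 4 had a lower mean and 0 were called, with sums of 9978 to 14455 in the KO, against 12864 to 17274 in wild type, and of 5 endothelial markers 3 had a lower mean and 1 was called higher, with sums of 702 to 1143 in the KO, against 797 to 896 in wild type. The sums of the fibroblast, adipocyte and immune markers did not overlap between the groups, and those of the other lists did. With the block 4 fibroblast, 2 adipocyte, 2 immune, 2 skeletal muscle and 1 endothelial marker were called higher. Of the luminal markers 1 was called higher and 1 lower with the block, and of the myoepithelial markers 0 were called. Over all genes 7.7% were called higher and 4.53% lower with the block.

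Among the whey genes, Wap read 9611, 9590 and 6506 in the KO, against 20173, 12607 and 6851 in wild type, and Lalba read 12040, 9079 and 2051 in the KO, against 27721, 16747 and 7784 in wild type. Wap had the same order of arrays within each group as Csn2. Lalba on KO array 3 lay below every other array. Neither passed without the block (limma adjusted p = 0.452 and 0.263), and Lalba fell with it (adjusted p = 0.0136).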

How the data were processed

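The deposited table holds linear signal intensity for 45101 probe sets of 6 arrays. The submitters' processing notes name MAS5 and affy as what the authors used to make these intensity values, without versions. The mean trimmed by 2% at each end is 150 on every array. Scanner files were not used here. The 64 control probe sets were left out, each gene took its probe set with the highest mean log2 signal, and genes under the 40th percentile were left out (a signal of 43.8), which kept 10916 of 18193. In the fit over probe sets the 40th percentile lay at a signal of 21.3. All 11 casein probe sets passed that filter, and all 5 genes passed the filter over genes. limma 3.58.1 in R 4.3.3 (lmFit, eBayes with an intensity trend) was run on log2(signal + 16), threshold 0.05, and on 27022 probe sets alone, and was tested on simulated data. The number of arrays limits the precision. Members and lists were chosen with earlier results of these data known. The named genes are the caseins, from each list the 3 or fewer of smallest p, the 5 genes most like the caseins and Stat5a, Stat5b, Elf5, Nr3c1, Fam20c, Wap and Lalba; Atp2c1, Jchain, Odam and Prr27 were named after their values were seen. Some list members were not analysed here. The labels state no pairing. Deviations from the group means of same-numbered arrays correlated at 0.46, 0.34 and 0.29 across genes, each over 0.1. KO array 2 with wild-type array 3 gave 0.15, also over 0.1, and all other unlike-numbered combinations were negative. Deviations within a group cancel out, so positive values for same-numbered arrays force negative ones among the rest, which are no separate evidence. Calls of a fit with the number as a block are also given for the caseins, the lists and Lalba. Alternatives were other pseudocounts, filters, scalings, weights, a Gapdh covariate, the block and left-out arrays.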

Additional observations from a re-analysis of the deposited data

How the results depend on the processing

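Of the casein results, those not named here kept direction and side of the threshold in every alternative run. Scaled to the hybridisation controls, the differences of Csn1s1, Csn2, Csn1s2a and Csn3 turned to 0.29, 0.26, 0.11 and 0.30, those of probe sets 1420633_a_at and 1420370_s_at to 0.24 and 0.32, the median of the 5 to 0.26 and the signal exceeded by the brightest 0.1% of probe sets to 0.48; the median of all genes moved up by 0.86 there. Quantile normalization gave a median of -0.14, and by construction it and scaling to that bright-end signal set the difference of that signal to 0. The replicate block called 3 casein genes, Csn1s2b (-1.59), Csn1s2a (-0.83) and Csn1s1 (-0.66), and changed no other casein call. Array quality weights called 1, Csn1s2b (-1.63, limma adjusted p = 0.00842), and also probe set 1438694_at (-3.70). Leaving out 1 array at a time gave 0 to 1 calls, -2.17 to -1.14 for Csn1s2b (called without KO array 1), -0.018 to 0.092 for the difference between the groups in the log2 ratio of Csn1s1 to Csn2 (-0.018 without KO array 3, and at -0.00067 without wild-type array 1) and -3.09 to 0.39 for probe set 1455579_at. The median of the 5 was -0.29 without wild-type array 1 and -1.09 without wild-type array 3, and -0.42 with the Gapdh covariate. The cause was not tested. Over all genes limma called 12 lower and 123 higher, against 494 and 841 with the block and 1051 and 1576 with the weights. Without KO array 1 it called 553 lower and 653 higher. Whether signal near the top of the range limits what bright casein probe sets can show was not tested.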
